A study of Mus musculus with 10 samples.

Results

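Rbm3 encodes a small glycine-rich RNA-binding protein with 1 RNA recognition motif whose level rises in mildly cooled mammalian cells. It was chosen by its symbol, and it is 1 of 38087 genes in the tables (ENSMUSG00000031167). Its exon reads, taken here as a measure of mature RNA, its intron reads, taken as a measure of precursor RNA, and their ratio were followed through a cooling and a warming course. All cells were wild-type NIH3T3, an immortalised mouse fibroblast line, so the values describe 1 cell line in culture. After seeding and 4 h at 37 °C the cultures spent 16 h at 38 °C or 33 °C and were then shifted to the opposite one. Moving from 38 to 33 °C is the downshift, and moving from 33 to 38 °C the upshift. The 0 h sample of each course was at its holding temperature and had not been shifted. Total RNA depleted of ribosomal RNA was sequenced at 0, 1, 3, 6 and 9 h of each course, with 1 sample at each time and 10 samples in all.

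Rbm3 and its relative Cirbp, the cold-inducible RNA-binding protein, are the classic cold-inducible RNA-binding proteins of mammals. RBM3 binds RNA, promotes translation, and in cooled mouse brain takes part in the maintenance of synapses. Its transcripts can include a so-called poison exon that brings a premature stop codon, and such transcripts are substrates of nonsense-mediated decay, the pathway that destroys RNAs with early stop codons. Cirbp serves below as a yardstick.

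Each sample has at least 2 columns of estimated read counts, series 5 and 11 for cooling and series 2 and 13 for warming, and the downshift samples at 1 and 3 h have a further one, series 10. What the series stand for is not explained in the labels. Series 2 and 5 were treated here as 1 set of both courses, and series 11 and 13 as another. The labels do not link a downshift series to an upshift series, so values by series that compare the courses depend on this pairing. Other pairings were not tested. The columns of a sample were summed, without series 10, and values by series are given where they part. Totals ran from 22403625 to 48004854 estimated reads in exon columns and from 15313374 to 25233405 in intron columns. Per column, Rbm3 itself had 1786 to 13715 reads in exons and 167 to 676 in introns, which gives a counting error of 0.854% to 2.37% for exons and of 3.85% to 7.73% for introns. All 8 fibroblast markers were expressed, with mean levels of 32.6 to 1430 exon RPKM. The highest mean level among markers was 0.396 for epithelium, 1.49 for blood, 0.79 for endothelium, 0.505 for muscle and 0.0263 for neurons.

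In the GENCODE M21 annotation of GRCm38 (the assembly also called mm10), Rbm3 lies on the minus strand at chrX:8138975-8145880. Of its 11 transcripts, 6 are annotated as protein coding, 2 as subject to nonsense-mediated decay and 2 as retaining an intron. Both decay transcripts contain an exon of 271 bp at chrX:8144175-8144445, inside intron 3 of the coding transcripts (chrX:8143948-8144572, 625 bp). The sequences around this exon are shown because this exon sets the decay transcripts apart from the coding ones. They are printed 5′ to 3′ on the minus strand of GRCm38, as carried by the GENCODE M21 transcripts, with exon bases in capitals, at chrX:8144553-8144582, chrX:8144436-8144465, chrX:8144155-8144184 and chrX:8143938-8143967.
End of exon 3: GAATGGAGAGgtgaggcctcctgcctgcac
Start of the decay exon: atgactgccttctgttctagGGGGTGGAGG
End of the decay exon: CAGTCAAGATgtaagtagtagcaggggaga
Start of exon 4: tgtctccttcccatacctagTCCCTGGATG
All of these boundaries have GT at the start and AG at the end of the intron. Read on from exon 3, the decay exon meets an in-frame stop codon, in capitals below, within its first 63 bases (chrX:8144383-8144445).
Decay exon to its stop codon: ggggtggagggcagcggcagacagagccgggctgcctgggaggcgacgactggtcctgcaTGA
This stop codon lies 488 and 402 bases upstream of the last exon junction in the 2 decay transcripts. The deposited values do not resolve single exons, so the use of the decay exon was not measured. Intron 3 is also covered in full, 625 of 625 bases, by exons of other annotated transcripts. Under the union of all annotated exons, exons take 4698 bp and introns 2208 bp of the gene. Under the coding transcripts alone they take 3576 and 3330 bp. The sources used here do not say which of these bases the authors counted as intron.

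**Figure D1:**
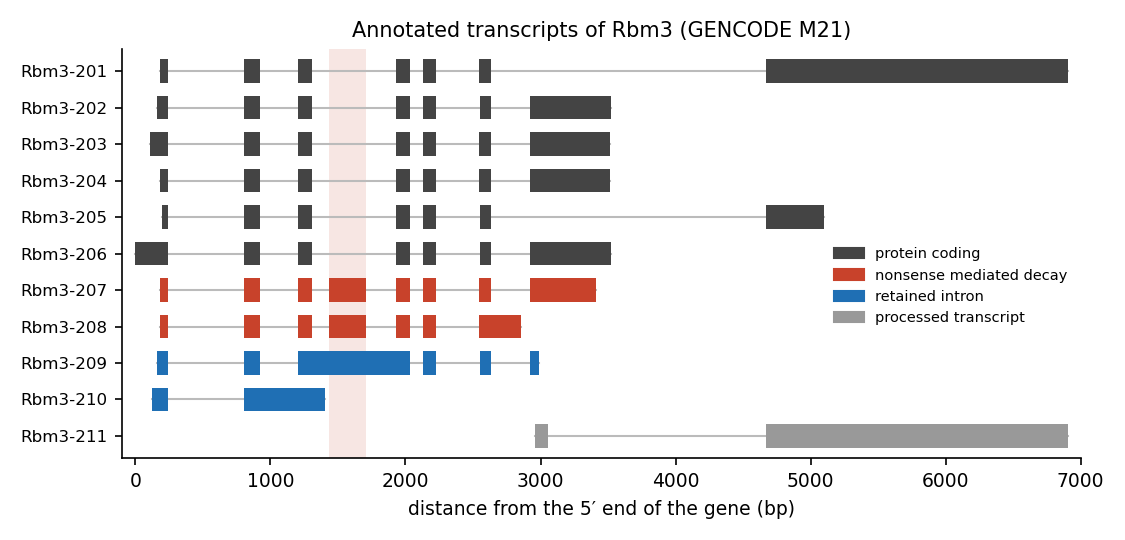
Annotated transcripts of Rbm3, with the distance in bp from the 5′ end of the gene on the horizontal axis, 1 transcript per line and boxes for exons coloured by transcript type. The shaded 271 bp exon is in the 2 decay transcripts and lies inside an intron of all 6 coding transcripts.

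Mature Rbm3 RNA rose through the downshift and fell through the upshift. Exon reads were 63.8, 87.8, 129, 134 and 183 CPM (read counts on a common library size, scaled by TMM) at 0, 1, 3, 6 and 9 h of the downshift. They were 252, 283, 233, 172 and 146 CPM at the same times of the upshift. The downshift values were higher at each later time, whereas the upshift values were higher at 1 h than at 0 h and declined afterwards. Per length, the exon level lay between 13.6 and 39.0 RPKM in the downshift and between 31.1 and 60.2 RPKM in the upshift. Over the 10 samples its mean was 35.8 RPKM, and 13.9% of the 10174 tested genes had a higher mean. These are bulk values, so fewer cells with the RNA and less RNA per cell cannot be told apart.

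The fitted log2 change of exon reads from 0 to 9 h was 1.38 ± 0.19 (SE) in the downshift (edgeR quasi-likelihood test, adjusted p = 0.00189) and -0.95 ± 0.19 in the upshift (adjusted p = 0.00467). The slope was taken on log2(h + 1), over 5 samples per course with no replicate at a time, and a gene was called at an adjusted p below 0.05. In these fits 16.4% of the tested genes were called higher in the downshift and 18.4% lower in the upshift. The difference between the courses, downshift minus upshift, was 2.34 ± 0.26 (adjusted p = 0.000194), against a median of 0.03 over all tested genes. It ranked 57th from the highest of 10174 genes, and 25.1% of genes were called higher. The sum of both changes was 0.43 ± 0.26 (adjusted p = 0.398), so a difference in size between rise and fall did not pass the test. With 0 h set against the mean of 3, 6 and 9 h in place of the slope, neither course alone was called, with changes of 1.19 (adjusted p = 0.0663) and -0.49 (adjusted p = 0.263), and in series 2 and 5 alone the upshift change was -0.67 (adjusted p = 0.129).

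The 2 sets of columns traced the exon course differently. In series 5 the downshift values were 50.5, 108, 167, 139 and 201 CPM, whereas in series 11 they were 77.0, 70.1, 79.9, 129 and 152 CPM. Series 5 stood at 2.14 times its 0 h value at 1 h, while series 11 stood at 0.911 of its 0 h value at 1 h and passed it only slightly at 3 h. In series 2 the upshift values were 304, 358, 318, 227 and 200 CPM, and in series 13 they were 220, 218, 165, 112 and 77.2 CPM. Series 2 thus kept 0.658 of its 0 h level at 9 h, and series 13 kept 0.351.

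**Figure D2:**
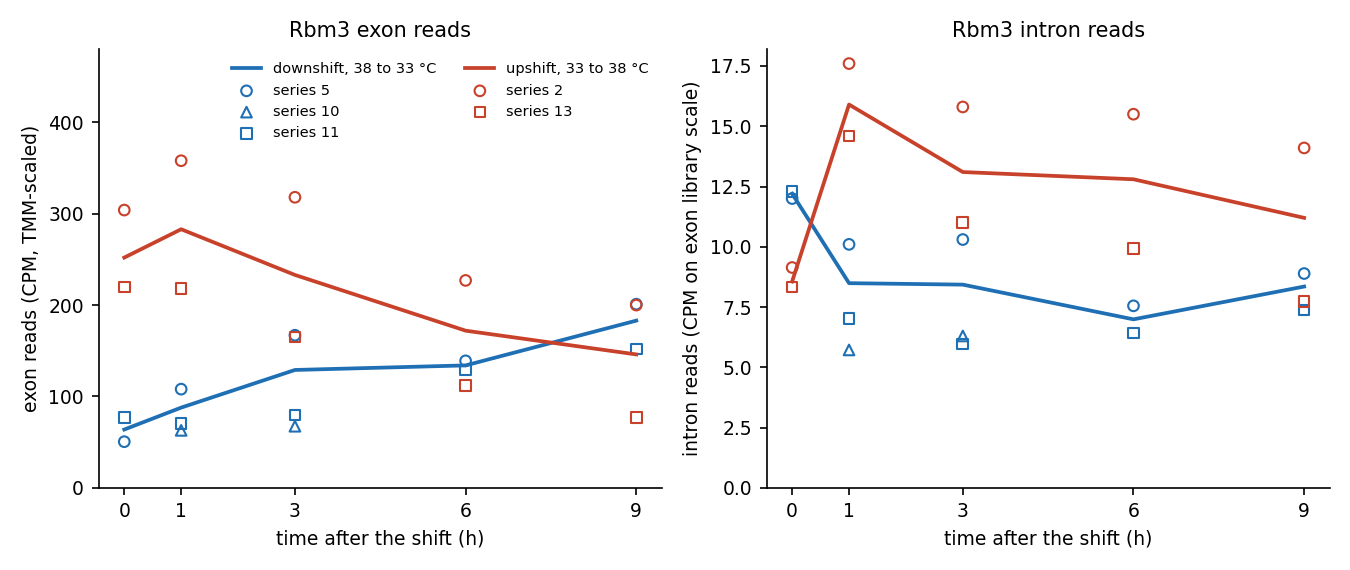
Rbm3 exon reads (left) and intron reads (right) in CPM on the exon library scale against hours after the shift, with blue for the downshift and red for the upshift. Lines join the summed samples and open symbols are the single columns by series. Exon lines run from 63.8 and 252 CPM at 0 h to 183 and 146 CPM at 9 h, and cross between 6 and 9 h. Intron lines exchange places between 0 and 1 h.

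Before the shift, after 16 h at the holding temperature, exon reads stood at 252 CPM at 33 °C and 63.8 CPM at 38 °C. This is a log2 difference of 1.98 ± 0.05 (95% counting interval of 2 single samples). With each set scaled on its own it was 2.57 in series 2 and 5 and 1.48 in series 11 and 13, both outside that interval. These and the following values at single times have no replicate and no test. By 9 h the summed downshift had covered 76.8% of the summed 0 h log2 difference and the upshift 39.7%. With all columns scaled together, the upshift share depended on the series, at 23.3% in series 2 and 5 and 99.7% in series 11 and 13. The downshift share was 76.9% in series 2 and 5 and 64.9% in series 11 and 13. Which course had covered more by 9 h thus differed between the sets. With each set scaled on its own, the upshift shares were 22.1% and 101%, and the downshift shares 77.3% and 66.1%. In the downshift the share was 23.3% at 1 h, 51.3% at 3 h and 53.9% at 6 h. At 1 and 3 h this too depended on the series, at 42.5% and 66.5% in series 2 and 5 and at -8.92% and 3.49% in series 11 and 13. At 6 h it was 56.4% in series 2 and 5 and 49.1% in series 11 and 13. For the summed samples, the upshift share was -8.29% at 1 h, 5.9% at 3 h and 27.9% at 6 h. In these samples, Rbm3 exon reads after 9 h at 33 °C were at 0.727 of the level after 16 h at 33 °C. After 9 h at 38 °C they were at 2.29 times the level after 16 h at 38 °C. The value at 38 °C depended on the series. It was 200 CPM after 9 h in series 2 against 50.5 CPM after 16 h in series 5. In series 13 it was 77.2 CPM after 9 h, nearly the same as the 77.0 CPM after 16 h in series 11. At 9 h the downshift exceeded the upshift by 0.33 on the log2 scale in the summed samples. With each set scaled on its own, the downshift was higher by 0.99 in series 11 and 13. In series 2 and 5 the difference was -0.02 ± 0.05 (95% counting interval), so no difference beyond counting error was seen there.

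Precursor reads ran another course than the mature RNA, as values with no test at single times. Intron reads were 12.2, 8.49, 8.43, 6.99 and 8.35 CPM through the downshift, and 8.56, 15.9, 13.1, 12.8 and 11.2 CPM through the upshift. The level at 1 h was thus below its start after cooling and above its start after warming. Between 0 and 1 h the intron value changed to 0.699 of its start in the downshift, and 4.67% of 9351 genes were lower. It changed to 1.85 times its start in the upshift, and 1.72% of genes were higher. Both series showed the same direction in that hour, with 0.846 in series 5 and 0.569 in series 11, and with 1.93 in series 2 and 1.75 in series 13. Exon reads in the same hour stood at 1.38 of their start in the downshift and 1.12 in the upshift.

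As slopes over the whole course, no intron change passed the test. In these fits introns were scaled on their own library sizes, whereas all intron CPM values are on the exon library scale. That scale does not take out a library-wide difference in intron reads. The fitted log2 change from 0 to 9 h was -0.49 ± 0.30 in the downshift (edgeR, adjusted p = 0.400) and -0.06 ± 0.33 in the upshift (adjusted p = 0.942). Their difference was -0.43 ± 0.45 (adjusted p = 0.585), when 7.67% of 9351 genes were called in either direction, and the sum of both changes was -0.55 ± 0.45 (adjusted p = 0.735). The sign of the difference was opposite to that of the exon reads. With 0 h set against 3, 6 and 9 h, the intron difference was called, at -0.94 (adjusted p = 0.0202). Leaving out the 0 h sample of the downshift or of the upshift turned the slope difference to 0.03 and 0.47.

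Sorted by the temperature at which cells were sampled, a grouping chosen after the values were seen, intron reads separated completely. This grouping is close to that by course, since 4 of the 5 samples at 33 °C are from the downshift and 4 of the 5 at 38 °C from the upshift. In the 5 samples at 33 °C they were between 6.99 and 8.56 CPM, with a mean of 8.16 ± 0.663 (SD, n = 5). In the 5 samples at 38 °C they were between 11.2 and 15.9 CPM, with a mean of 13 ± 1.74 (SD, n = 5). The 2 groups did not overlap, and the exact permutation test over samples gave a two-sided p = 0.00794, the smallest that 252 permutations can give for groups of 5. This test takes no account of the course, and it was run on a separation already seen, so its p is no independent evidence. Among 9351 genes, 8.52% had intron reads higher at 38 °C in every sample. In an edgeR fit with the course as a covariate, only the 0 h sample of each course has the other temperature. This fit compares 0 h with later times within each course, so it cannot separate sampling temperature from time since the shift. It therefore overlaps with the comparison of 0 h with later times given above. Its log2 difference, 33 °C minus 38 °C, was -0.53 ± 0.14 (adjusted p = 0.0221), and 10.3% of genes were called lower at 33 °C. This call was lost in series 11 and 13 alone (-0.52, adjusted p = 0.128), without the 0 h sample of the downshift (-0.51, adjusted p = 0.241) and without that of the upshift (-0.56, adjusted p = 0.141). In single columns, the series 2 and 5 groups did not overlap, whereas series 13 at 9 h of the upshift (7.74 CPM) lay below the highest 33 °C column of series 11 and 13. Exon reads did not separate by sampling temperature, with 87.8 to 252 CPM at 33 °C, with 63.8 to 283 CPM at 38 °C, and with a two-sided exact permutation p = 0.794. Their means were 157 ± 63.0 and 179 ± 83.7 CPM (SD, n = 5), a mean log2 difference, 33 °C minus 38 °C, of -0.12. With the course as a covariate in edgeR the difference had the opposite sign, at 0.68 ± 0.30 (adjusted p = 0.185).

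**Figure D3:**
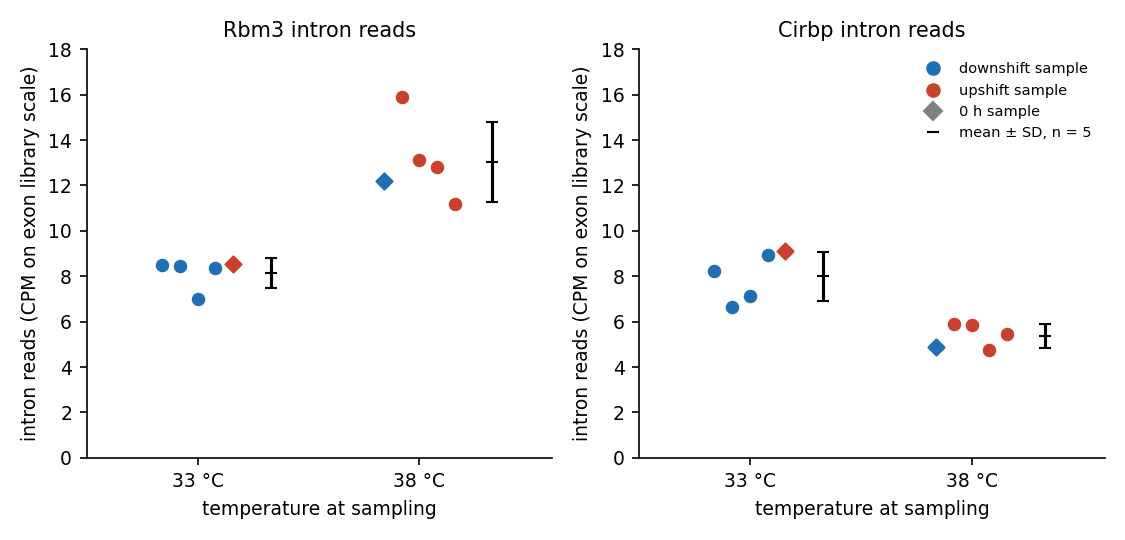
Intron reads of Rbm3 (left) and Cirbp (right) in CPM on the exon library scale, by the temperature at sampling. Points are the 10 samples, diamonds those at 0 h, and bars give mean ± SD of 5 samples. Rbm3 lies between 6.99 and 8.56 at 33 °C and between 11.2 and 15.9 at 38 °C, and Cirbp lies the other way round, between 6.64 and 9.1 at 33 °C and between 4.74 and 5.88 at 38 °C.

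The exon-to-intron ratio relates both kinds of reads within a sample, here on the exon library size for both. For Rbm3 it was 5.25, 10.3, 15.3, 19.1 and 21.9 through the downshift and 29.5, 17.8, 17.8, 13.4 and 13 through the upshift. It was higher at each later time of the downshift, and in the upshift it was lower at 1 h and again at 6 h. In the first hour it reached 1.97 times its start in the downshift, and 0.374% of genes had a larger increase. It reached 0.604 of its start in the upshift, and 2.74% of genes had a larger decrease. At 0 h the ratio was higher at 33 °C by 2.49 ± 0.15 on the log2 scale (95% counting interval). It was higher by 2.98 in series 2 and 5 and by 2.08 in series 11 and 13, both outside that interval. By 9 h the summed downshift had covered 82.9% of the summed 0 h difference and the upshift 47.3%. In series 2 and 5 these shares were 81.3% and 41.1%, and in series 11 and 13 they were 82.9% and 67.5%.

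The fitted log2 change of the ratio was 1.99 ± 0.21 in the downshift (edgeR, adjusted p = 0.00319), when 3.08% of genes were called higher. In the upshift it was -1.11 ± 0.20 (adjusted p = 0.0180), when 3.29% were called lower. The difference between the courses was 3.1 ± 0.29 (adjusted p = 0.000413), 8th from the highest of 9351 genes, with 15.8% called higher. The median difference over all genes was 0.25. Exon library sizes were used for both kinds of reads, so a ratio change shared by most genes was not scaled out. Relative to the median the Rbm3 difference is smaller by that amount. With introns on their own library sizes the upshift change was -0.94 and no longer called (adjusted p = 0.0639). The upshift call was also lost when the 0 h, 6 h or 9 h sample of that course was left out, at -0.72, -1.07 and -1.24. With linear hours in place of the log slope the calls of both single courses were lost, at 1.77 (adjusted p = 0.0534) and -0.98 (adjusted p = 0.176). By temperature at sampling, the grouping chosen after the values were seen, the ratios overlapped, with 10.3 to 29.5 at 33 °C and 5.25 to 17.8 at 38 °C. The mean log2 difference, with 0.1 CPM added to both kinds of reads, was 0.54 (two-sided exact permutation p = 0.246). With the course as a covariate in edgeR it was 1.29 ± 0.23 (adjusted p = 0.0118), when 5.86% of genes were called higher. This fit again compares 0 h with later times within each course, and its call was lost without either 0 h sample. The sum of both changes was 0.88 ± 0.29 (unadjusted p = 0.00998, adjusted p = 1).

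By series, the ratio gave the following courses. In series 5 it was 4.22, 10.7, 16.2, 18.4 and 22.6, and in series 11 it was 6.24, 9.98, 13.4, 20.1 and 20.7. In series 2 it was 33.3, 20.3, 20, 14.6 and 14.2, and in series 13 it was 26.4, 15, 15, 11.3 and 9.98. At 1 h the downshift ratio was therefore above its start, and the upshift ratio below its start, in every series.

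The sum of the exon and intron values of Rbm3 was a whole multiple of 1/12 in all 22 columns (tolerance 1e-05), while neither value alone was in any column. For Cirbp no sum was. The sources used here do not state how reads were divided between exon and intron values, and the part of that division in the ratio was not tested.

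**Figure D4:**
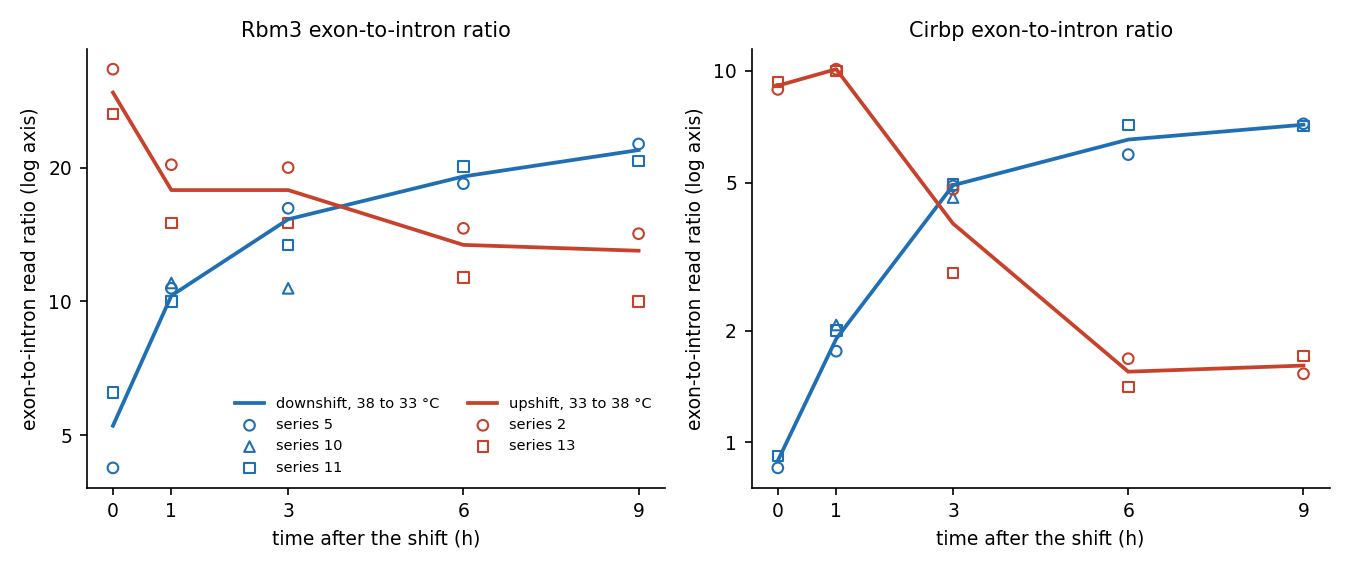
Exon-to-intron read ratio on a log axis against hours after the shift for Rbm3 (left) and Cirbp (right), with blue for the downshift and red for the upshift. Lines join the summed samples and open symbols are the single columns by series. The Rbm3 ratio at 1 h is 10.3 in the downshift, from 5.25, and 17.8 in the upshift, from 29.5.

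Cirbp, measured in the same samples, had higher mature and higher precursor reads at 33 °C than at 38 °C at 0 h. Rbm3 had higher mature and lower precursor reads at 33 °C. These precursor values are on the exon library scale, which does not take out a library-wide difference in intron reads. The exon reads of Cirbp went from 4.36 to 63.8 CPM in the downshift and from 83.1 to 8.77 CPM in the upshift. The fitted exon difference between the courses was 7.35 ± 0.59 (edgeR, adjusted p = 7.04e-05), the largest of the 10174 genes. Per length, its mean level of 13.2 RPKM lay below that of Rbm3. In contrast to Rbm3, its intron reads were higher at 33 °C in every sample, at 6.64 to 9.1 CPM against 4.74 to 5.88 CPM at 38 °C. The intron log2 difference in edgeR, from the same fit of 0 h against later times, was 0.78 ± 0.14 (adjusted p = 0.00391). In that fit 9.29% of genes were called higher at 33 °C. Intron reads were higher at 33 °C in every sample for 5.26% of genes. The slope difference of Cirbp introns was 1.67 ± 0.34 (adjusted p = 0.0192), against -0.43 ± 0.45 for Rbm3. The difference between the 2 genes was not tested. The Cirbp ratio ran from 0.893 to 7.16 in the downshift, and in the upshift it was 9.12 at 0 h, 10.1 at 1 h and 1.61 at 9 h. In the first hour of warming the ratio of Cirbp thus stood at 1.1 times its start, when that of Rbm3 stood at 0.604.

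**Figure D5:**
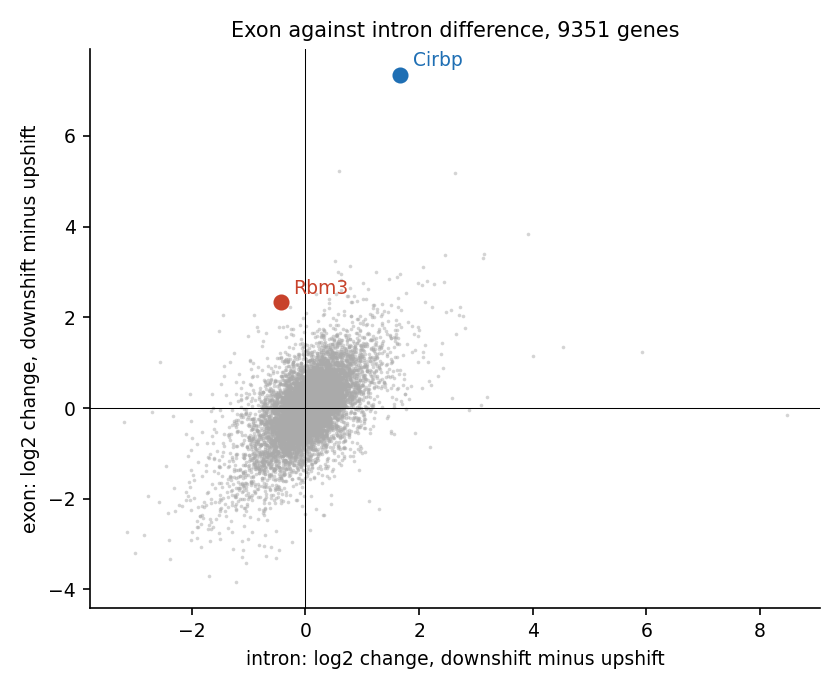
Fitted log2 difference between the courses, downshift minus upshift, for exon reads (vertical) against intron reads (horizontal), with 1 point for each of 9351 genes. Rbm3 lies at 2.34 for exons and -0.43 for introns, and Cirbp at 7.35 and 1.67.

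The genes most like Rbm3 in exon reads were Uxs1 (r = 0.987), Wls (0.984), Fam69a (0.98), Gbas (0.979) and Serpinb6a (0.979). These are Pearson correlations of log2 CPM over the 10 samples, which share their libraries and scaling. Uxs1 encodes UDP-xylose synthase, and Wls the carrier that brings Wnt proteins to the cell surface. Their differences between the courses were smaller than that of Rbm3, at 0.87 for Uxs1, 1.19 for Wls, 0.81 for Fam69a, 1.72 for Gbas and 0.59 for Serpinb6a. Cirbp ranked 1873rd of 10173 genes, with r = 0.658. By the log2 exon-to-intron ratio the most alike were Foxred2 (r = 0.974), Ptp4a2 (0.968), Slc20a2 (0.958), Mpdu1 (0.957) and Arfgap2 (0.954), and Cirbp ranked 234th of 9350, with r = 0.868. Foxred2, an oxidoreductase of the endoplasmic reticulum, had an intron difference between the courses of -2.56 (edgeR, adjusted p = 0.00963) beside an exon difference of 1.02 (adjusted p = 0.0115). The intron differences of the other 4 were not called, at -0.56 for Ptp4a2, 0.11 for Slc20a2, 0.11 for Mpdu1 and -0.46 for Arfgap2.

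Of 11 listed cold-inducible and cold-shock-domain RNA-binding proteins 6 were tested. The exon difference between the courses was called higher for 2 and lower for 1, with a list median of 0.04 beside 0.03 for all genes, and 25.1% of all genes were called higher and 21.8% lower. The higher ones were Cirbp and Rbmx, a splicing regulator related to Rbm3, at 1.03 (edgeR, adjusted p = 0.000801). Rbm5, a splicing regulator, was lower, at -0.74 (adjusted p = 0.0430). Ybx3 was not analysed here.

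Of 10 genes reported to act on Rbm3 or to be its targets 9 were tested, 1 called higher and 3 lower, with a median of -0.19, when 25.1% and 21.8% of all genes were so called. Plcg1, the phospholipase C of receptor tyrosine kinase signalling, was higher at 1.14 (edgeR, adjusted p = 0.00125). Creb1, a transcription factor of the same signalling route, was lower at -1.79 (adjusted p = 0.0132), and Hsf1, the heat shock transcription factor, at -1.39 (adjusted p = 0.000315). Hnrnph1, an RNA-binding protein reported in human cells to repress the poison exon of RBM3, was lower at -1.10 (adjusted p = 0.00101). Its exon reads lay between 289 and 527 CPM. Ntrk2, the receptor upstream of Plcg1 in neurons, was below the filter, with at most 0.0125 CPM.

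All 15 listed genes of nonsense-mediated decay and of the exon junction complex were tested. Of these 2 were called higher and 2 lower, with a median of 0.01, against 25.1% and 21.8% of all genes. Eif4a3, the core helicase of the exon junction complex, was higher at 0.83 (edgeR, adjusted p = 0.000377) and Smg5, a decay factor, at 0.49 (adjusted p = 0.0145). Upf1, the central helicase of the decay pathway, was lower at -0.50 (adjusted p = 0.00704) and Smg8, a regulator of the kinase that phosphorylates it, at -0.42 (adjusted p = 0.0437).

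On the opposite strand, the antisense gene Rbm3os overlaps Rbm3 by 452 bp. It had exon reads of 0.146 to 0.353 CPM and intron reads of 0.147 to 0.396 CPM, against at least 63.8 and 6.99 CPM for Rbm3. The libraries are strand-specific, but the sources used here do not state whether counting used the strand. Of the protein-coding genes within 50 kb, Wdr13 had an exon difference of 0.46 (edgeR, adjusted p = 0.0310), Tbc1d25 of -0.72 (adjusted p = 0.0435) and Ebp of -0.63 (adjusted p = 0.00205), while Was and Porcn were below the filter. The exon difference of Rbm3, 2.34, was larger in size than those of its tested neighbours.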

How the data were processed

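Total RNA libraries of wild-type NIH3T3 cells were treated with DNase, depleted of ribosomal RNA, and sequenced strand-specifically as read pairs, per the labels' protocols. STAR and bedtools were used with mm10, versions unstated, per the submitters' processing notes. For the annotation release and the division of reads between exons and introns, the sources used here state nothing. By name the deposited values are RPKM, but the authors' values behave as estimated counts (column totals differ, and 22.9% of exon values above 0 are whole), so they were rounded to whole numbers. Each sample's columns were summed, and an offset for each gene took up the mix of series. Series 10, present at 1 and 3 h of the downshift, was not used in the main fits. The title of 1 sample has a mistyped temperature, and its description places it in the upshift.

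Exon and intron reads of all genes were tested with the edgeR quasi-likelihood test (edgeR 4.0.16, R 4.3.3), with TMM scaling and an intercept and slope on log2(h + 1) per course. Each kind of reads was scaled on its own library sizes in these fits, while intron CPM values are on the exon library scale. The stated SE is the change divided by the square root of F. Genes needed a mean exon RPKM of 1 (10174 genes). Tests of introns and ratios further needed a mean of 0.05 intron RPKM (9351). RPKM was computed here with GENCODE M21 lengths, found for 95.3% of genes. The Benjamini-Hochberg adjustment ran over all genes tested. For the ratio, the test was whether the slope differed between exon and intron reads, with exon library sizes. Nothing in the labels says whether columns or times are separate cultures, so p-values measure the spread about the slopes. Counting intervals are 95% and cover counting error only. Scripts were tested on simulated data with changes planted in the difference between the courses. For exons, 34 of 99 genes planted at log2 1 and 94 of 98 at log2 2 were called. For the ratio, 13 of 99 and 55 of 98 were called. Of genes without a planted change, 6 of 9967 were called for exons and 9 of 9158 for the ratio. No intron change was planted, so the power of the intron tests was not measured.

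The gene, the lists and the tests were chosen with earlier results of these data known. Genes named are Rbm3, Cirbp, Rbm3os, the 5 most alike by exon reads and by ratio, coding genes within 50 kb, and up to 4 called members per list. A member first put on a list is not reported here, and the list's counts leave it out. Alternatives covered scaling, filter, offset, series, time scale, a block for time, DESeq2 1.42.0, limma 3.58.1 and samples left out. The fit by temperature at sampling was added after seeing the data.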

Additional observations from a re-analysis of the deposited data

Results flagged for a closer look

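Series 10 has columns at 1 and 3 h of the downshift only and entered no comparison other than an alternative in which it was added to the sums. Its exon-to-intron ratio of Rbm3 was 11 at 1 h and 10.7 at 3 h, flagged because these columns had otherwise not been analysed. Both values lay above the 0 h columns of series 5 (4.22) and series 11 (6.24). At 1 h the ratio also lay above series 5 (10.7) and series 11 (9.98), but at 3 h it lay below them (16.2 and 13.4). Unlike in those series, it was not higher at 3 h than at 1 h. Series 10 has no 0 h column of its own. Its exon reads were 62.9 and 67.4 CPM and its intron reads 5.72 and 6.30 CPM at those times, and both 1 h and 3 h intron values lay below the 0 h values of 12 and 12.3 CPM in the other series. No test was made.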

How the results depend on the processing

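Of the alternatives run, 322 values kept their direction and their side of the threshold or moved by less than the counting interval, 15 lost a call, 2 gained one, 13 changed sign and 10 moved. The cause was not tested. The difference between the shifts in exon reads and in the ratio stayed called in all alternatives run. With 0 h against 3, 6 and 9 h the exon change was 1.19 in the downshift and -0.49 in the upshift, the intron change of the upshift 0.39 and the intron difference -0.94. With linear hours the ratio change was 1.77 and -0.98. The upshift ratio change was -1.11 with that course alone and -0.94 with introns on their own library sizes. In series 2 and 5 the upshift change was -0.67 for exons and 0.31 for introns, the sum of both intron changes 0.01, the exon and ratio differences at 0 h 2.57 and 2.98, the exon difference at 9 h -0.02, and the upshift share covered 22.1%. In series 11 and 13 the sum of both exon changes was -0.43, the exon and ratio differences at 0 h 1.48 and 2.08, the exon difference at 9 h 0.99, the shares covered 66.1% and 101%, and the intron difference by sampling temperature -0.52. With upper-quartile scaling the 0 h exon difference was 1.92 and the downshift share 79.7%. The intron change of the upshift was 0.00 without the series offset and 0.07 in limma with either pseudocount. With single samples left out the exon changes ranged from 1.29 to 1.47 and from -1.48 to -0.70, their difference from 2.09 to 2.87 and their sum from -0.10 to 0.70. The intron changes ranged from -0.71 to -0.04 and from -0.96 to 0.28, their difference from -0.77 to 0.47 and their sum from -1.45 to -0.10. The sum of -1.45, without the upshift 0 h sample, was called (edgeR, adjusted p = 0.0255), and the intron change of the upshift was 0.25 without its 1 h and 0.28 without its 9 h sample. The ratio changes ranged from 1.5 to 2.19 and from -1.24 to -0.72, their difference from 2.61 to 3.30 and their sum from 0.39 to 1.28. By sampling temperature the exon difference ranged from 0.31 to 1.04, the intron difference from -0.58 to -0.47 and the ratio difference from 0.96 to 1.61, and the ratio call was lost without either 0 h sample. No paired analysis was possible because the labels give no replicate numbers and each time has 1 sample per course. A block for the time point, which pairs the courses by time and not by replicate, gave differences between the shifts of 2.32 for exons, -0.48 for introns and 3.1 for the ratio, with no change of call. Intron counts of 167 to 676 per column limit the precision of intron values and ratios.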
